A study of Mus musculus with 6 samples.

Results

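Mouse zinc finger genes whose symbols run from Zfp700 to Zfp799 and from Zfp900 to Zfp999 were described in RNA sequencing of bone marrow derived macrophages (BMDMs, macrophages grown in culture from marrow precursors). All rows of the deposited table with such a symbol were taken, which gave 81 members among 13254 genes, 33 in the 700 series and 48 in the 900 series. There were 3 samples from miR-130b/301b knockout mice (KO), in which this microRNA cluster is deleted, and 3 from wild-type mice (WT); the study's title names efferocytosis, by which macrophages engulf dying cells. The labels give no strain, age, sex or culture time. Whether the 3 samples of each genotype are 3 animals is also not labelled, and the spread on which the p-values rest could be that of repeated preparations. The values were labelled CPM (nominally counts scaled to a fixed library total). The depth in reads was unknown, and the columns summed to between 989223 and 1018258 CPM. The highest sum lies above that nominal total, so the values were not scaled to it alone.

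The symbols name a numbering range, not a single lineage. Most proteins in it are C2H2 zinc finger proteins, in which arrays of short zinc-binding loops read DNA, and many carry at the amino end a KRAB domain, a repressor module that recruits the scaffold protein TRIM28 (KAP1) and with it the histone methyltransferase SETDB1. In mouse, KRAB zinc finger genes lie in clusters of young, closely related copies, and several are known to silence retrotransposons and to differ between mouse strains. Their transcripts are generally scarce, and the copies share long stretches of sequence.

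The labelled cell type was checked against its markers. All 8 macrophage markers were listed, with a summed level of 20042 to 20571 CPM in KO and 18418 to 18936 CPM in WT. This sum was higher in every KO sample than in any WT sample. No T cell or erythroid marker of the 4 in each list was present. Of 8 stromal markers 7 were listed, with a sum of 4.91 to 33.1 CPM in KO and 47.1 to 53.6 CPM in WT, so these moved with genotype. Lum, the only stromal marker not listed, is a matrix gene of fibroblasts. Of the 4 dendritic cell markers only Flt3 was listed, at 0.240 to 0.313 CPM in KO and 0.435 to 0.531 CPM in WT, and of the 4 mast cell and basophil markers only Kit, at 0.356 to 0.978 CPM in KO and 1.23 to 2.59 CPM in WT. Both were also lower in every KO sample. The 8 neutrophil and early myeloid markers summed to 176 to 224 CPM in KO and 197 to 217 CPM in WT, and 3 of 4 B cell markers to 6.25 to 6.81 CPM in KO and 5.66 to 6.48 CPM in WT, each with an overlap.

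The members' annotated proteins were searched for both domains. In the 79 members matched by identifier in GENCODE M21, a KRAB core pattern was found in 63, made up of 44 of 47 in the 900 series and 19 of 32 in the 700 series. At least 1 C2H2 finger pattern was found in 75 of the 79. Members lay on 13 chromosomes, with 19 on chromosome 7, 17 on chromosome 17, 9 on chromosome 2, 8 on chromosome 8, 7 on chromosome 13 and 6 on chromosome 4.

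Coding stretches are shown for 3 groups of members on which the results turn, because likeness between copies decides to which gene a read can be assigned. Each group opens with 120 coding bases from the start of a member's first zinc finger, as annotated in GENCODE M21, and the others are shown at their best ungapped match to it, with differing bases in capitals. The first group lies on chromosome 2, where Zfp973 and Zfp970 closely resemble Zfp969 and Zfp931 less so, with 1, 5 and 14 differing bases.
Zfp969: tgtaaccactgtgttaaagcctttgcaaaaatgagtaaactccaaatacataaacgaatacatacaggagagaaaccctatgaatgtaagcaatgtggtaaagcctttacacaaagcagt
Zfp973: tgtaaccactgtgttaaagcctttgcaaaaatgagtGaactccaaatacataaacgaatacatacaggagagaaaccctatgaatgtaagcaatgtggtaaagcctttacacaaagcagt
Zfp970: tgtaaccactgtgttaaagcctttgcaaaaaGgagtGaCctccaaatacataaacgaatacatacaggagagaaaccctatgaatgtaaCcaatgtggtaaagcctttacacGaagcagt
Zfp931: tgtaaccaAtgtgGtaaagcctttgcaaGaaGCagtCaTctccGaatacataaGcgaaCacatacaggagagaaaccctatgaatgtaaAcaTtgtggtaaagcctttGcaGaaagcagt

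The second group lies on chromosome 4. Over these bases Zfp992 differs from Zfp991 at 1 base and Zfp984 at 6, and over all 1722 coding bases Zfp991 and Zfp992 are 99.5% identical.
Zfp991: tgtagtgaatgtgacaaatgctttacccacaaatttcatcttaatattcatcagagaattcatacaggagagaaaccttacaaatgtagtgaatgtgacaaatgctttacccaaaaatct
Zfp992: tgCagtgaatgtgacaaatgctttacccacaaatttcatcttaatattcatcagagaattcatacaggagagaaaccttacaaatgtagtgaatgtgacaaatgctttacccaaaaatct
Zfp984: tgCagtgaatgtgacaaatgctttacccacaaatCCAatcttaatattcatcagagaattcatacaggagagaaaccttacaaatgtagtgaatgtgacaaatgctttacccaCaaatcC

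The third group shows Zfp951 on chromosome 5 beside Zfp930 on chromosome 8, the member with the fewest edits to its whole coding sequence. Over these 120 bases the pair differs at 21, more than the copies above.
Zfp951: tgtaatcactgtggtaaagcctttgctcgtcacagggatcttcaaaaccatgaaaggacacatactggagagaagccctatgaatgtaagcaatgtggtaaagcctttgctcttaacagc
Zfp930: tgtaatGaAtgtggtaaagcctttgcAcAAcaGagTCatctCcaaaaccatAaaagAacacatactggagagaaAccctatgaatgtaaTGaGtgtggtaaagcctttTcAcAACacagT

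The members' genes were expressed at low levels. Per kilobase of the longest annotated transcript, their mean level over the 6 samples had a median of 2.29 CPM per kilobase (n = 79), against 6.46 CPM per kilobase over all 12676 genes with an annotated length. The medians of the series lay close together, at 2.16 CPM per kilobase in the 700 series and 2.34 CPM per kilobase in the 900 series. Zfp genes with other numbers were about as low, with a median of 2.49 CPM per kilobase (n = 256). Of the 81 members, 57 had a mean under 10 CPM and 8 reached at least 30 CPM. Summed over all members, the level was 974, 1003 and 976 CPM in KO and 1016, 979 and 1016 CPM in WT, so the ranges of the genotypes overlapped.

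**Figure D1:**
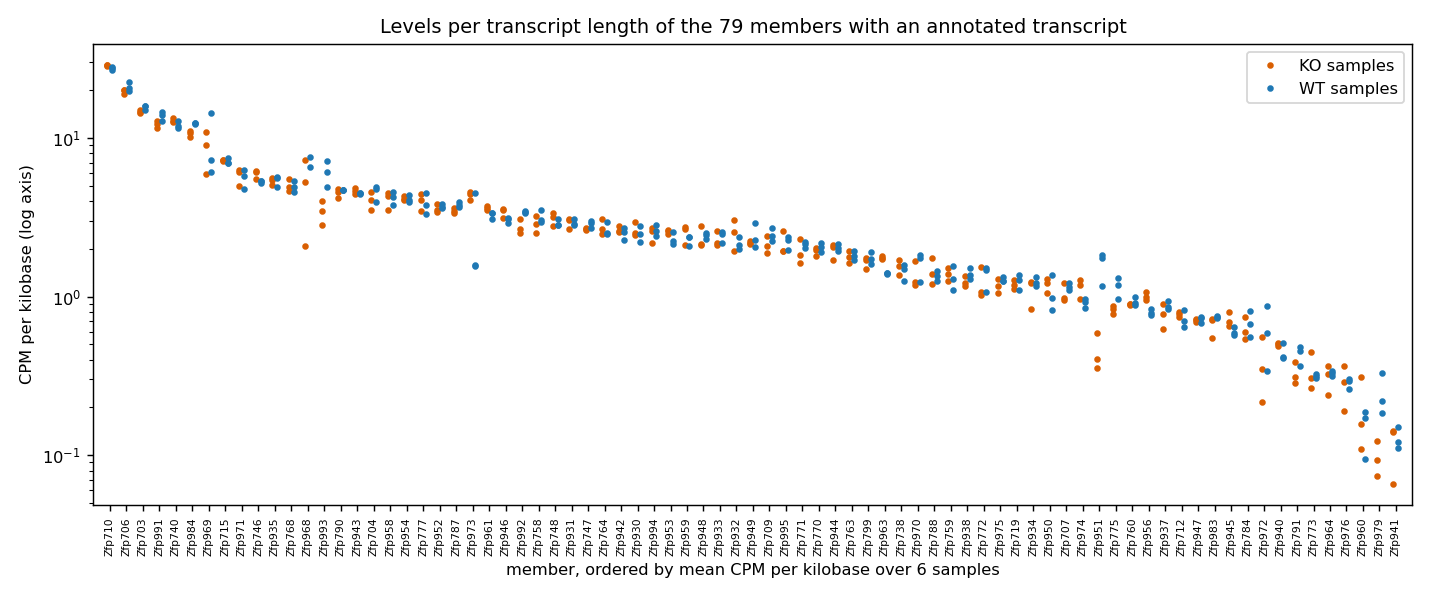
Level of each of the 79 members with an annotated transcript in CPM per kilobase (log axis), with 1 point for each sample, KO orange and WT blue; 1 value listed at 0 (Zfp968 in WT replicate 3) cannot be drawn. Levels fall from 28.04 CPM per kilobase for Zfp710 to 0.122 CPM per kilobase for Zfp941, and the genotypes lie on top of each other for most members, with Zfp951 as a clear exception.

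The 5 members with the highest mean CPM all belong to the 700 series and lack the KRAB pattern. Zfp710 had the highest level, with 166.8, 169.4 and 169.1 CPM in KO against 161.0, 157.1 and 164.5 CPM in WT. The groups did not overlap, and the log2 fold change was 0.07 (SE 0.0324, limma, BH-adjusted p = 0.456). Zfp706, a short zinc finger protein needed by mouse embryonic stem cells to leave the pluripotent state, had 89.0, 84.0 and 89.1 CPM in KO against 86.9, 91.2 and 99.5 CPM in WT. Its groups overlapped (-0.08 on the log2 scale).

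Zfp704 had 48.9, 63.3 and 56.6 CPM in KO and 68.1, 54.9 and 66.2 CPM in WT, with overlapping groups. Zfp740 had 53.8, 54.0 and 56.6 CPM in KO and 54.5, 49.2 and 50.1 CPM in WT, again with an overlap. Zfp703, whose human counterpart ZNF703 is a transcriptional corepressor amplified in breast cancer, had 46.3, 45.2 and 47.0 CPM in KO against 49.8, 47.5 and 50.4 CPM in WT. All 3 KO values of Zfp703 lay below the WT values, and the difference did not pass the test (-0.09, SE 0.0428, limma, BH-adjusted p = 0.439).

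In most members KO and WT differed little. A level of 1 CPM or more in at least 3 samples was required for testing, which 76 of the 81 members met. Of these, 1 passed the limma test at a BH-adjusted p under 0.05, Zfp951, which fell in KO; over all 11556 genes tested, 147 passed, or 1.27%. At an unadjusted p under 0.05 there were 11 of the 76 members (14.5%), 5 higher and 6 lower in KO, against 12.5% of all tested genes. The KO and WT values did not overlap in 16 of the 76 (21.1%), against 17.7% of all tested genes. Taken over both series together, these shares lie near the background.

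The median log2 fold change of the tested members was -0.03, against -0.00 for all tested genes. In the 700 series it was -0.05, and in the 900 series -0.02. An unadjusted p under 0.05 was reached by 2 of 32 in the 700 series (6.25%) and 9 of 44 in the 900 series (20.5%). Over all tested genes that share was 12.5%. KO and WT values did not overlap in 15.6% of the 700 series and 25% of the 900 series, against 17.7% of all tested genes. Of the 76, 68 had a log2 fold change smaller than 0.25 in size, and the range was -1.28 to 0.74. Among the 241 tested Zfp genes with other numbers 0 passed the test with limma, and the median log2 fold change was 0.01. Of these 241, 16 had an unadjusted p under 0.05 (6.64%), against 12.5% of all tested genes and 14.5% of the members. Their KO and WT values did not overlap in 11.2%, against 17.7% of all tested genes and 21.1% of the members.

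**Figure D2:**
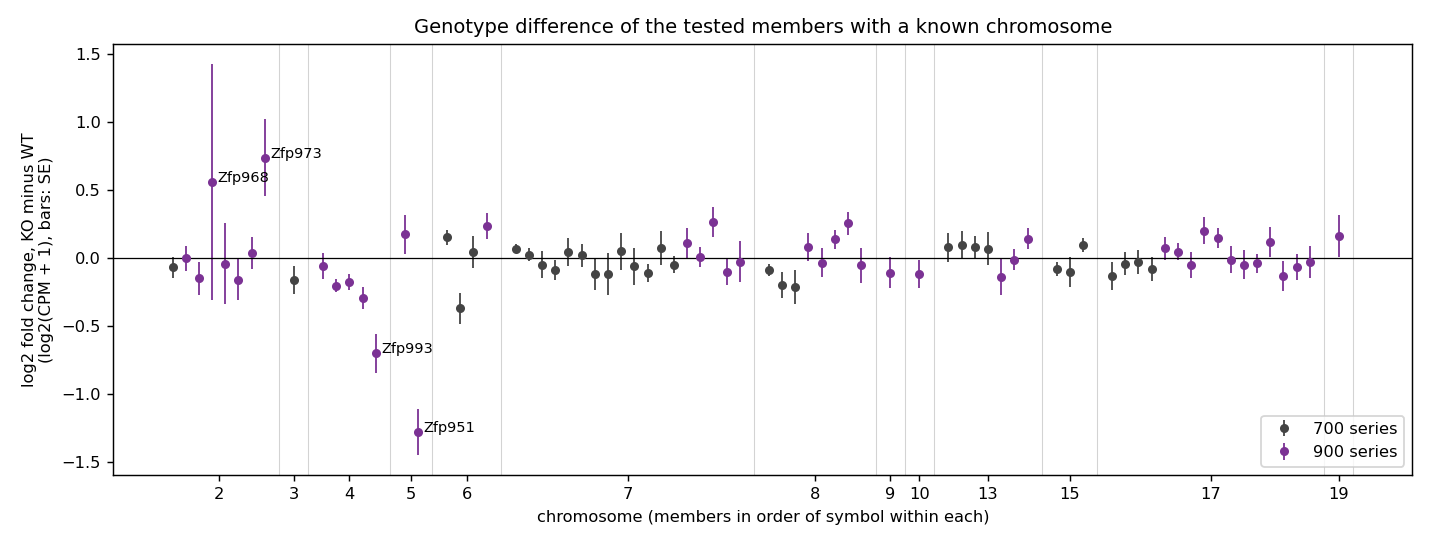
Log2 fold change, KO minus WT, on the log2(CPM + 1) scale for the 75 tested members with a known chromosome, in blocks by chromosome; bars are the SE of the limma fit. Most lie within 0.25 of 0, Zfp951 on chromosome 5 lies at -1.28, and the 5 tested members on chromosome 4 all lie below 0. Zfp968, Zfp969 and Zfp973 on chromosome 2 have wide bars.

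Zfp951 showed the largest genotype difference among the members. It encodes a KRAB protein with 10 finger patterns, and its level was 1.03, 1.72 and 1.17 CPM in KO against 5.35, 3.39 and 5.10 CPM in WT. All KO values lay below the lowest WT value, with means of 1.31 ± 0.365 CPM in KO and 4.62 ± 1.06 CPM in WT (SD, n = 3 each). The log2 fold change was -1.28 (SE 0.171, limma, BH-adjusted p = 0.0117), and on the log2(CPM + 1) scale this understates the change of so low a gene. The exact permutation test of Zfp951 alone gave a two-sided p of 0.1, the smallest that 20 labelings allow. Leaving out KO replicate 1 ended the call, with a log2 fold change of -1.19 and a limma BH-adjusted p of 0.0584. Leaving out WT replicate 3 also ended it, with -1.21 and a limma BH-adjusted p of 0.0646.

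Values that bear on how Zfp951 was measured were also taken. None of its 75-base transcript words occurs in another annotated gene (0%). Only exact matches to annotated transcripts were searched, not near matches or the rest of the genome. None of the 20 tested genes nearest to it on chromosome 5, 10 on each side, passed the test. The summed stromal markers, Flt3 and Kit were also lower in every KO sample than in any WT sample, at the levels given above. The summed macrophage markers were higher in every KO sample. What part any of these markers' cells have in the Zfp951 difference was not tested. In such bulk samples fewer cells of a type and less RNA per cell cannot be told apart.

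The 6 members on chromosome 4 were then examined as a group, a grouping made after their values were seen. In map order they are Zfp992, Zfp993, Zfp991, Zfp979, Zfp984 and Zfp933, all with a KRAB pattern. Of the 5 that were tested, every KO sample lay below every WT sample in 4, the exception being Zfp933, and the same held for Zfp979, which was under the filter. Over all tested genes 9.1% lay so, and since the group was formed on these values nothing is read from the count. None of them passed the test over all genes.

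Zfp993 had 4.43, 3.61 and 5.08 CPM in KO against 7.80, 6.28 and 9.15 CPM in WT. Its log2 fold change was -0.70 (SE 0.144, limma, BH-adjusted p = 0.0671), the second largest decrease among the tested members. The annotated coding sequence of Zfp993 holds the KRAB pattern but no finger pattern.

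Zfp984 had 27.8, 30.1 and 29.3 CPM in KO and 34.0, 33.7 and 33.3 CPM in WT (-0.21, limma, BH-adjusted p = 0.112). Zfp992 had 12.2, 14.0 and 11.4 CPM in KO against 15.7, 15.6 and 15.3 CPM in WT (-0.29, limma, BH-adjusted p = 0.175). Zfp991 had 36.0, 34.3 and 32.5 CPM in KO and 40.8, 36.2 and 39.5 CPM in WT (-0.18, limma, BH-adjusted p = 0.273). In all of these the gap between the genotypes was small beside the level itself.

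Zfp979, known also as Ssm1b, a strain-specific modifier that brings about DNA methylation of a transgene in the early mouse embryo, was too low to be tested. It had 0.191, 0.244 and 0.317 CPM in KO and 0.858, 0.570 and 0.478 CPM in WT. Zfp933 had 9.25, 11.02 and 8.97 CPM in KO and 10.4, 9.22 and 10.9 CPM in WT, so its groups overlapped. The sum of the 6 genes was 89.8, 93.4 and 87.6 CPM in KO against 109.7, 101.6 and 108.5 CPM in WT, without overlap.

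Most of these chromosome 4 genes share stretches of transcript with other genes, so a read lying within such a stretch may match more than 1 gene. The share of 75-base transcript words found in another annotated gene was 78.7% for Zfp993, 75.9% for Zfp991, 40.9% for Zfp984, 34.5% for Zfp992 and 23.6% for Zfp979, while Zfp933 shared none. For Zfp993, 75.4% of its words occurred in Zfp991. How the authors assigned reads that match several genes is not given in the sources used here, so the values of single members here are uncertain. Zfp268, a nearby zinc finger gene outside the numbering range, averaged 12.5 ± 1.85 CPM in KO and 16.9 ± 0.806 CPM in WT (SD, n = 3 each), also without an overlap (-0.41, limma, BH-adjusted p = 0.113).

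**Figure D3:**
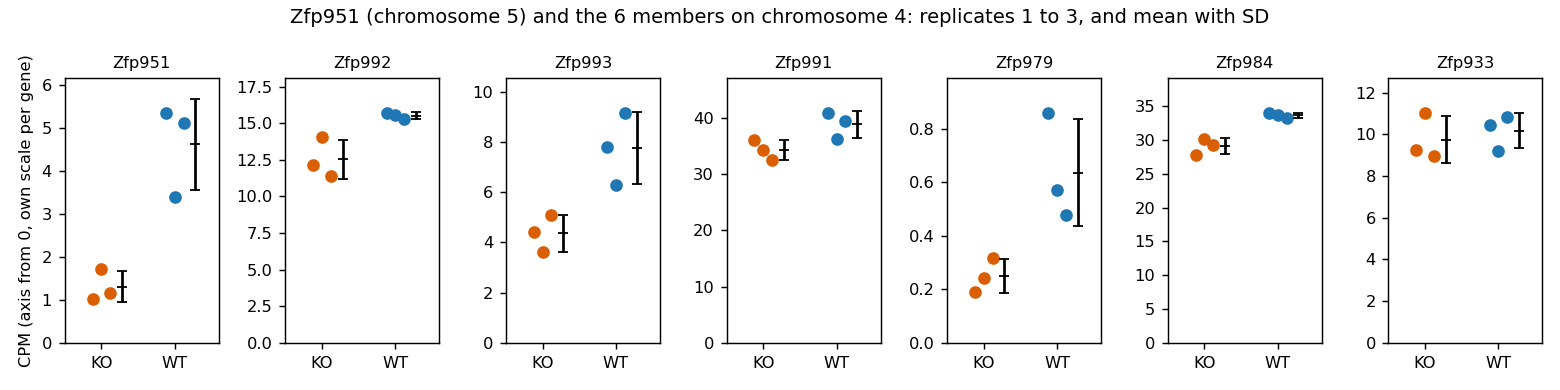
CPM in each sample, with the mean and SD to the right of the points, for Zfp951 and the 6 members on chromosome 4 in map order; KO is left of WT and each axis starts at 0 with its own scale. All KO points lie below all WT points in each panel but that of Zfp933.

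On chromosome 2, Zfp968 and Zfp969, which share transcript sequence, varied in opposite directions between samples of the same genotype. Zfp968 had 3.08, 10.7 and 7.77 CPM in KO and 9.67, 11.2 and 0 CPM in WT, the last being listed at 0. Zfp969 had 15.8, 8.66 and 13.1 CPM in KO and 10.6, 8.84 and 21.02 CPM in WT. Where one was high in a sample, the other was low. Their sum, which was formed after the values were seen, was 18.9, 19.4 and 20.9 CPM in KO against 20.2, 20.1 and 21.02 CPM in WT. The sum averaged 19.7 ± 1.02 CPM in KO and 20.4 ± 0.504 CPM in WT (SD, n = 3 each), so it hardly varied while its parts did.

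All of the 1730 words of 75 bases in Zfp969 (100%) occur in Zfp968, whose annotated transcripts are longer, with 3027 words. Of these, 92.3% occur in another gene, most often Zfp966 (67.6%). The annotated proteins differ, with 11 finger patterns in Zfp969 and a KRAB pattern without a finger pattern in Zfp968. The log2 fold changes were 0.56 for Zfp968 (SE 0.866, limma, BH-adjusted p = 0.847) and -0.04 for Zfp969 (SE 0.298, limma, BH-adjusted p = 0.972). Both reversed with 1 sample: without WT replicate 3 they were -0.61 for Zfp968 and 0.31 for Zfp969, and without KO replicate 2 that of Zfp969 was 0.18. Neither gene alone gives a stable value in these samples.

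Zfp973, also on chromosome 2, had 5.23, 5.77 and 5.90 CPM in KO and 2.03, 2.04 and 5.84 CPM in WT. The third WT sample thus lay within the KO range. The log2 fold change was 0.74 (SE 0.281, limma, BH-adjusted p = 0.327), and it was 1.13 without WT replicate 3 (limma, BH-adjusted p = 0.00403). Of its words, 76.0% occur in another gene, most often Zfp965 (72.3%). Gm4724, a gene model on chromosome 2, was the only gene past the test among the 20 tested neighbours of Zfp973, with 4.36 ± 1.04 CPM in KO and 1.70 ± 0.291 CPM in WT (SD, n = 3 each; 0.98, limma, BH-adjusted p = 0.0262).

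The promoters of Zfp973 and Zfp968 are almost the same and are shown as the windows of 300 bases around the annotated start, from RefSeq on GRCm38.p6. That of Zfp973 lies at chr2:176670272-176670571 on the plus strand, and that of Zfp968 at chr2:175372186-175372485 on the plus strand. The capital marks the single base at which they differ.
Zfp973: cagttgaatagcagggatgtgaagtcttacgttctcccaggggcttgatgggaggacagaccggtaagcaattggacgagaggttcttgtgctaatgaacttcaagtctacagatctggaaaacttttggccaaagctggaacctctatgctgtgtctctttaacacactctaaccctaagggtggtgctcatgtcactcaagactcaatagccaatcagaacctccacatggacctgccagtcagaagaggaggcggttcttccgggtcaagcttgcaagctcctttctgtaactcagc
Zfp968: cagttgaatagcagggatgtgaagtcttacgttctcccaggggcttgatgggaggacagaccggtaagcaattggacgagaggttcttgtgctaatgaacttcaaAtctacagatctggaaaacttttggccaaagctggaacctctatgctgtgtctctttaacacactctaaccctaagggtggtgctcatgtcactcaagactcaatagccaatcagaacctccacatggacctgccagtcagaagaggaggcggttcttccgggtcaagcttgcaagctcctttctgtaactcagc

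**Figure D4:**
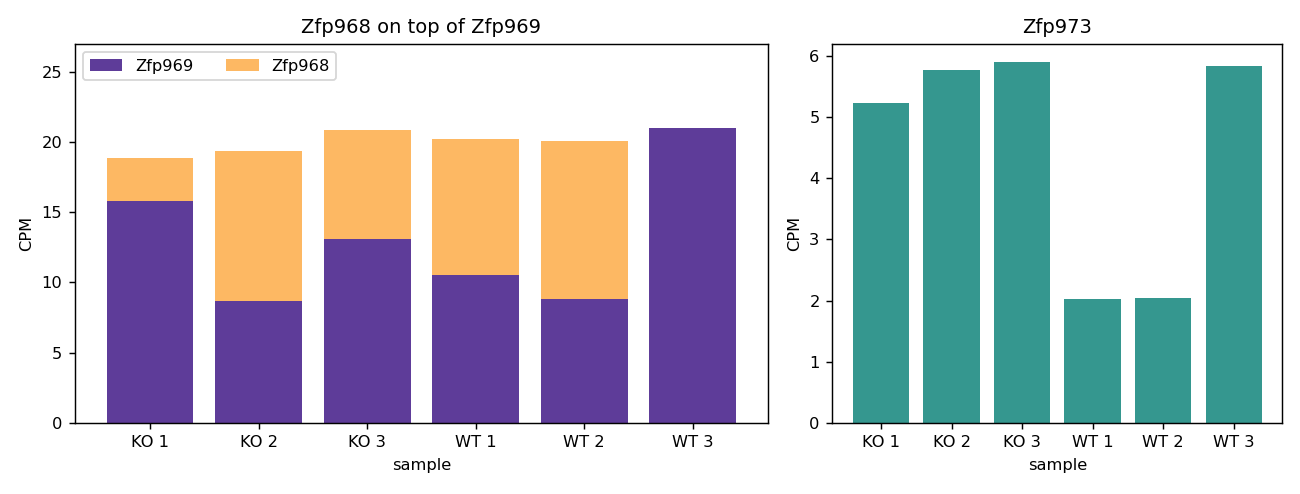
CPM in each sample of Zfp969 with Zfp968 stacked on top (left) and of Zfp973 (right), KO samples left of WT samples, bars from 0. The stacks reach 18.9 to 21.02 CPM in every sample while the split within them changes, and Zfp973 is low in WT replicates 1 and 2 only.

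Spread within a genotype was large in few members. The larger of the KO and WT coefficients of variation (CV, the SD over the mean) had a median of 11.5% over the 76 tested members, against 10.9% over the 2240 tested genes with a mean between the members' quartiles. It stayed under 20% in 64 and exceeded 30% in 4, which were Zfp968, Zfp973, Zfp969 and Zfp976. Its median was 33.7% in the 6 tested members that share over 50% of their words and 12.5% in the 14 that share 10 to 50%. It was 11.6% in the 28 that share up to 10% and 11.3% in the 27 that share none. The median size of the log2 fold change, in the same order, was 0.37, 0.14, 0.11 and 0.07, and Zfp951 belongs to the class that shares none. Among the 6 that share over 50%, the CV ran from 6.12% to 87.3%, with Zfp968, Zfp973 and Zfp969 at the top. Zfp935 among the 6 and Zfp963 among the 14 share nearly all such words with an overlapping gene model, and had CVs of 7.80% and 2.12%. Sharing was examined after these values had been seen.

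**Figure D5:**
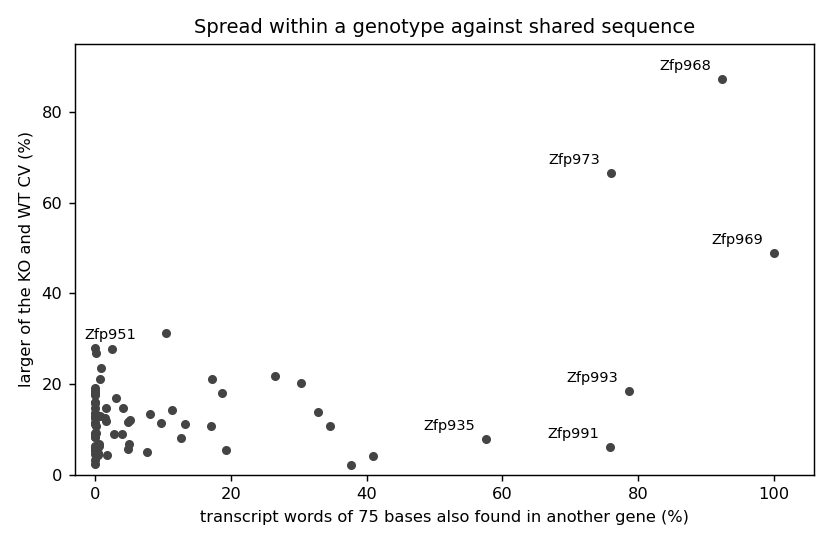
Larger of the KO and WT coefficients of variation (vertical axis) against the share of a member's 75-base transcript words that occur in another gene (horizontal axis), for the 75 tested members with an annotated transcript, 1 point each. The 3 highest points, Zfp968, Zfp973 and Zfp969, lie at the right with shares of 92.3%, 76.0% and 100%. Zfp991 and Zfp993 have shares of 75.9% and 78.7%, with CVs of 6.12% and 18.6%.

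Beyond these groups, 5 members had an unadjusted p under 0.05, and none of them passed the adjusted test. Zfp746 (PARIS), a substrate of the ubiquitin ligase parkin that represses the coactivator gene Ppargc1a, had 22.5, 20.3 and 22.2 CPM in KO against 19.7, 19.4 and 19.1 CPM in WT. Its groups did not overlap (0.15, limma, BH-adjusted p = 0.335). Zfp775 had 3.64, 3.48 and 3.22 CPM in KO against 4.02, 4.89 and 5.41 CPM in WT, again without an overlap (-0.37, limma, BH-adjusted p = 0.212).

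Zfp963 had 4.11, 4.01 and 3.94 CPM in KO and 3.21, 3.17 and 3.23 CPM in WT, whose larger CV is the lowest of all tested members (0.26, limma, BH-adjusted p = 0.260). Zfp956 had 3.00, 2.83 and 2.68 CPM in KO and 2.37, 2.23 and 2.17 CPM in WT, without an overlap (0.24, limma, BH-adjusted p = 0.362). Zfp974 had 6.61, 6.13 and 4.96 CPM in KO and 4.38, 5.01 and 4.78 CPM in WT, with a slight overlap (0.26, limma, BH-adjusted p = 0.368). These members lie on chromosomes 6, 7 and 8 and do not adjoin the chromosome 2 and 4 groups.

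The remaining tested members did not reach an unadjusted p of 0.05. They include Zfp932, a KRAB protein known in mouse to repress endogenous retroviruses, with 7.61, 6.44 and 4.87 CPM in KO and 4.99, 5.32 and 5.95 CPM in WT, which overlap. Members under the filter were Zfp783, Zfp941, Zfp960, Zfp972 and Zfp979, all below 1 CPM in every sample.

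In the larger clusters on other chromosomes the log2 fold changes lay on both sides of 0. The 18 tested members on chromosome 7 had log2 fold changes from -0.12 to 0.26, the 16 on chromosome 17 from -0.13 to 0.20, the 7 on chromosome 13 from -0.14 to 0.14 and the 8 on chromosome 8 from -0.21 to 0.26. Close copies occur there too. Zfp947 and Zfp995 on chromosome 17 are 95.1% identical over 1314 coding bases, yet share only 7.61% and 3.08% of their 75-base words with other genes. Zfp947 had 2.05, 2.08 and 1.99 CPM in KO and 2.13, 1.94 and 2.12 CPM in WT. Zfp995 had 5.73, 4.33 and 4.32 CPM in KO and 4.37, 5.06 and 5.26 CPM in WT. The groups of both genes overlapped, and neither showed the opposite swings of Zfp968 and Zfp969.

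Zfp935 on chromosome 13, whose identifier GENCODE M21 names Gm49359, shares 57.5% of its words, nearly all with an overlapping model that M21 names Zfp935. Its level was 13.6, 13.9 and 12.5 CPM in KO and 14.1, 12.3 and 14.0 CPM in WT. Zfp715 on chromosome 7, a KRAB member that shares no word, had 31.7, 31.5 and 31.3 CPM in KO and 30.2, 32.7 and 30.2 CPM in WT. In both the groups overlapped.

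Members stood near a gene past the test somewhat less often than tested genes in general. Of the 75 tested members with a position, 9 (12%) had at least 1 gene past the test among the 10 tested genes on each side, against 16.5% of all tested genes with a position. Zfp706 on chromosome 15 stood beside 7 such genes (Rida, Vps13b, Polr2k, Rnf19a, Azin1, Atp6v1c1 and Rims2), while Zfp706 itself did not pass the test. Clustered members have neighbours in common, and Gm4724 was the only such gene for each of Zfp968, Zfp969 and Zfp973.

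The genes through which KRAB proteins act were also examined, as a list of 40 that covers TRIM28, SETDB1 with its partners, heterochromatin proteins, the HUSH complex, the NuRD complex and DNA methyltransferases. All 40 were tested. Resf1, a partner of SETDB1 in silencing of retroelements, was the only one past the test, and it fell in KO to 75.8 ± 2.46 CPM, against 101.5 ± 11.5 CPM in WT (SD, n = 3 each; -0.41, SE 0.0728, limma, BH-adjusted p = 0.0384). That call was lost under several settings and when any of 5 of the 6 samples was left out. Trim28 averaged 125.7 ± 6.02 CPM in KO and 131.9 ± 5.19 CPM in WT (SD, n = 3 each; -0.07, limma, BH-adjusted p = 0.593). Setdb1 averaged 72.6 ± 1.07 CPM in KO and 71.6 ± 0.958 CPM in WT (SD, n = 3 each; 0.02, limma, BH-adjusted p = 0.876). The median log2 fold change of the list was -0.01, and 5 of the 40 had an unadjusted p under 0.05 (12.5%). Over all tested genes that share was also 12.5%.

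The members were searched for matches to the seed (bases 2 to 8) of the deleted microRNAs, since such a match in the 3′ untranslated part is where a microRNA of this kind typically pairs. The mature sequence is from RefSeq on GRCm38.p6, where its gene lies on chromosome 16, with the seed in capitals.
miR-130b-3p: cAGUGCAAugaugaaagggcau

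The complement TTGCACT, on the transcript strand only, occurred in the longest annotated 3′ untranslated part of 8 of the 72 tested members that have one (11.1%), against 11.95% of the 10691 tested genes that have one. The median log2 fold change was -0.11 in the 8 with a match and -0.01 in the 64 without, against -0.01 and 0.00 over all tested genes with and without one. Of the 8, 1 (Zfp963) was higher in KO (12.5%), against 566 of the 1278 tested genes with a match (44.3%), and 2 had an unadjusted p under 0.05 (25%), against 15.3% of those 1278. The sites in Zfp992 and Zfp963, the 2 of the 8 with an unadjusted p under 0.05, are shown with 10 bases on each side and the match in capitals. A match is only a run of letters and does not show that the microRNA pairs there.
Zfp992: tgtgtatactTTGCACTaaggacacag
Zfp963: ttgggagaccTTGCACTtccatgacat

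The promoter windows were searched on both strands for a CCAAT box (CCAAT) and a GC box (GGGCGG). Neither motif contains the other. CCAAT was found in 51 of the 80 windows of the 71 members matched (63.8%), against 37.4% of all 32851 windows. GGGCGG was found in 30 of the 80 (37.5%), against 35.7% of all. Both near-identical promoters printed above hold CCAAT as printed. Copies that share a promoter sequence are counted once each, so these windows are not independent of each other.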

How the data were processed

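The authors deposited 1 table of CPM values per gene for 6 libraries, per the file headers. GRCm39 is the build named in the submitters' processing notes; which aligner, counter, gene annotation, strandedness and scaling were used is not given in the sources used here. Sample columns left unused numbered 0; a single unlabelled value in the table was not used. The members and gene lists were chosen with earlier results of these data known. The 11556 genes that reached 1 CPM in 3 or more samples were tested on the log2(CPM + 1) scale with limma 3.58.1 in R 4.3.3 (mean-variance trend, two-sided), and p-values were adjusted over all of these genes by the Benjamini-Hochberg (BH) method, with a threshold of 0.05. The fit was tested on simulated data. Fold changes are KO minus WT. Replicate numbers were left out of the fit because no label ties same-numbered samples together: deviations of same-numbered samples correlated at 0.000154, 0.0834 and 0.0646.

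Members past the test, those with an unadjusted p under 0.05, the 5 highest by mean CPM and the 3 with the largest CV are given in full; members under the filter are named; of the partner genes and other Zfp genes, those past the test are named. Zfp268, Gm4724, Zfp932, Trim28, Setdb1 and the other neighbours named were chosen after their values were seen.

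Sequences came from GENCODE M21 (GRCm38) and RefSeq (GRCm38.p6), and no position was converted. Of the 81 members 79 matched. Words of 75 bases were compared with every annotated transcript. Fingers were counted as C-x2-4-C-x12-H-x3-5-H, and the KRAB core pattern was set after translated members had been looked at. Levels per kilobase use the longest annotated transcript. The seed search, the word comparison and the levels per kilobase were added after the values were seen. Scripts used Python 3.11.15.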

Additional observations from a re-analysis of the deposited data

How the results depend on the processing

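The count of 1 member past the test held under pseudocounts of 0.1, 0.5 and 5, no filter, median-of-ratios scaling, quantile normalization, no trend, robust moderation and array weights, and without the members that share over 50% of their words, an alternative chosen after seeing the data. It was 0 with a mean of at least 5 CPM, where Zfp951 is not tested, and 0 to 1 when 1 sample was left out; without WT replicate 3 the 1 was Zfp973, not Zfp951. With a replicate block it was 2, Zfp951 and Zfp993 (limma, BH-adjusted p = 0.0174 for Zfp993); the samples share only a number, and those numbered 2 and 3 correlated best with their own number (0.0834 and 0.0646), those numbered 1 did not (0.000154). All genes past the test numbered 74 without a trend and 55 to 243 when 1 sample was left out (55 without WT replicate 3, 58 without WT replicate 2, 63 without KO replicate 1, 243 without WT replicate 1). The members' median log2 fold change was -0.0389 to -0.00263 when 1 sample was left out. Zfp genes with other numbers past the test numbered 1 with array weights (Zfp532) and 0 to 1 when 1 sample was left out. Resf1 lost its call with quantile normalization, no trend and a replicate block, each giving 0, and the partner count was 0 to 2 when 1 sample was left out. Leaving out 1 sample gave log2 fold changes of -0.61 (without WT replicate 3) to 1.20 for Zfp968 and of -0.27 to 0.31 for Zfp969, which was positive without KO replicate 2 (0.18) and WT replicate 3. The causes were not tested. Depth in reads was unknown, so no floor could be set for the low members.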
